A study of Mus musculus with 12 samples.

Results

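The interferon-gamma induced GTPases and regulators described here are 10 genes measured in mouse splenocytes that had been cocultured with tumour cells. They comprise the receptor chains Ifngr1 and Ifngr2, the transcription factors Irf1 and Irf8, and the GTPases Gbp2, Gbp3, Irgm1, Igtp, Ifi47 and Iigp1. Members were chosen by symbol: every probe set that the platform annotation assigned to one of these 10 symbols alone was taken, whatever its signal. That gave 14 probe sets, with 2 each for Ifngr2, Irf8, Gbp2 and Iigp1. Of these, 13 passed a filter that asked for a signal above the median of the own array on at least 3 arrays, and all 10 genes were among the 11325 tested of the 18193 genes named on the array. The second probe set of Ifngr2 did not pass and never exceeded a signal of 42.5.

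Splenocytes of DBA/2 mice aged 10 weeks were kept for 9 days with KLN-205 cells, a squamous carcinoma line of the mouse lung, and interleukin-2 was given at 100 units/mL every 3 days. SEMA3A, a semaphorin that cells secrete, was knocked down in the tumour cells of every group, controls included. The control group had only these cells (KLN-205KD). In the SEMA6A group the tumour cells also overexpressed SEMA6A, a membrane-bound semaphorin. The SEMA3A group had KLN-205KD cells plus purified SEMA3A protein at 10 µg/mL, and the group called both factors here combined SEMA6A overexpression with the protein. Each of the 4 groups had 3 arrays. The labels do not state that the 3 samples of a group had separate cultures or donors, nor how many clones the tumour lines represent. P-values here therefore measure the spread between these samples, which may be technical. The question asked of the 10 genes was whether they followed the signal of Ifng, the gene of interferon-gamma itself.

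Interferon-gamma is made mainly by activated T cells and NK cells. It binds a receptor of IFNGR1, which holds the ligand, and IFNGR2, which is needed to start signalling through the kinases JAK1 and JAK2. Promoters of responding genes often carry gamma-activated sites (GAS). IRF1 is an early target and itself binds interferon-stimulated response elements (ISRE), while IRF8 is best known from myeloid cells and is also made by lymphocytes. The guanylate-binding proteins (GBP) and the immunity-related GTPases (IRG) are late, strongly inducible products that act on the vacuoles of intracellular parasites and bacteria.

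Promoters of 9 of the 10 genes were searched, and 6 of these held a GAS or ISRE match in the 250 bases before the start of transcription. The motifs searched on both strands were TTCNNNGAA for GAS and, for ISRE, GAAA followed after any 2 bases by a second GAAA. Of 32851 windows of the same length in the RefSeq table of build GRCm38.p6, 7.02% held the GAS letters, 2.98% the ISRE letters and 0.332% both. The 6 promoters are shown since they carry the letters through which the pathway is known to act, and since their genes differed in how they varied over the arrays. Each is written 5′ to 3′ on the strand of its gene with the matches in capitals. Irf1 (chr11:53769764-53770013, plus strand) had 1 GAS match, whose first base lay 90 bases before the start. Irf8 (chr8:120736108-120736357, plus) had 2 GAS matches, at 171 and 153 bases. Gbp2 (chr3:142620413-142620662, plus) had 1 ISRE match, at 59 bases. Gbp3 (chr3:142559794-142560043, plus) had 2 overlapping ISRE matches, at 45 and 39 bases. Irgm1 (chr11:48871421-48871670, minus) also had 2 overlapping ISRE matches, at 30 and 24 bases. Igtp (chr11:58199306-58199555, plus) had a GAS match at 45 bases followed by an ISRE match at 34 bases.
Irf1: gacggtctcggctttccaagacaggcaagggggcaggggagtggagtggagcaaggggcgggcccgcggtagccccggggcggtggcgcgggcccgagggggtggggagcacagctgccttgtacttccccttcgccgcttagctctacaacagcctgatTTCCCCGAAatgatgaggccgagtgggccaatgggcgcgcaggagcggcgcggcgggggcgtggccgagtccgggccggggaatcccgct
Irf8: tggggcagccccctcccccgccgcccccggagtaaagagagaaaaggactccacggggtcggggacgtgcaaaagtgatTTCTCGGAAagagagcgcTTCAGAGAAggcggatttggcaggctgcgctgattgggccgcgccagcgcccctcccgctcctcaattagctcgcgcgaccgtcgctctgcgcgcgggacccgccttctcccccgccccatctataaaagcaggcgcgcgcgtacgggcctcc
Gbp2: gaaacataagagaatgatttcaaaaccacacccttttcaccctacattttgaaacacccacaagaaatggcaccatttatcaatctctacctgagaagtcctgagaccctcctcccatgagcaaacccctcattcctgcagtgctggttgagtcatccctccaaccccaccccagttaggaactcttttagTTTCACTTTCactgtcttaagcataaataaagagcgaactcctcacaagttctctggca
Gbp3: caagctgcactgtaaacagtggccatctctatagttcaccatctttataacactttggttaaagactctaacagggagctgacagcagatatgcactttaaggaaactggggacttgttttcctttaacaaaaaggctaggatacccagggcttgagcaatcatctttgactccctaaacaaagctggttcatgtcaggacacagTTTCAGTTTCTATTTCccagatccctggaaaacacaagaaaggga
Irgm1: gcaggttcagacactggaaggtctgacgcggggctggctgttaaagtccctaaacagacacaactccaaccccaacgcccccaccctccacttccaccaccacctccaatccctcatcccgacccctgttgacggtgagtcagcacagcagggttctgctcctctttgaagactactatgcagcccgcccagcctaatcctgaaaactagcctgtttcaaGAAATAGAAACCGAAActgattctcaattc
Igtp: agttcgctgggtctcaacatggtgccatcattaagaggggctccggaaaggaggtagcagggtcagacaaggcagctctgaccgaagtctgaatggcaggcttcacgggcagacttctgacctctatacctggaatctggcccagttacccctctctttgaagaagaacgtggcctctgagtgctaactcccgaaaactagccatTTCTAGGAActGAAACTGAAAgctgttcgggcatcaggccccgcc
A match describes the letters only, and a window without them says nothing about binding. Ifi47, Ifngr1 and Ifngr2 had neither motif in this window, and neither did the second listed starts of Irf1, Irf8 and Gbp3.

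Array medians lay between 42.5 and 53.5 in the deposited signals and the highest signals between 44046 and 53212. All 66 pairs of arrays correlated at 0.9692 to 0.9914 over the genes tested, and no pair was identical. On the first principal component of the fitted levels, with 31.4% of the variance, 4 arrays stood apart: SEMA6A arrays 2 and 3 and SEMA3A arrays 1 and 2, at -0.68 to -0.22 against 0.13 to 0.25 on the other 8. The Gapdh control probe sets gave a 3'/5' ratio of 1.22 on SEMA6A array 2 and of 0.767 to 0.818 elsewhere. Those of the transferrin receptor gave 6.82 to 9.34 in the controls, 17.2 to 18.1 with SEMA3A and 5.93 to 12.2 with both factors, and 8.39, 35.7 and 23.3 on SEMA6A arrays 1 to 3. Of 12 listed T cell markers 10 were tested, with Cd3d at 15896 to 23139 and Cd5 from 55.5 upward with a median of 115, and Cd4 never exceeded a signal of 13. Of 14 macrophage markers on the array 5 were tested. These were Ccr2 at 3177 to 6265, Cd68 at 185 to 347, Cd14 at 163 to 318, Csf1r at 73.8 to 136 and Fcgr1 at 3.35 to 64.6. Among those not tested, Adgre1 and Itgam stayed at or below 51.5 and 33.1. No neutrophil marker of 8 passed the filter. Of 15 squamous tumour markers 10 were tested, with Cdh1 at 1048 to 1869, Epcam at 610 to 1132 and Sfn at 15.9 to 67.2. Krt14 of squamous epithelium was not among them and stayed at or below 43.9. RNA of a mixture of cells was measured, so fewer cells of a type and less RNA per cell cannot be told apart. How much of it came from tumour cells was not tested.

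Ifng is described first, in its deposited signal. It read 538, 541 and 543 on the control arrays, 444, 326 and 248 with SEMA6A, 302, 332 and 534 with SEMA3A, and 677, 662 and 588 with both factors. Both single-factor groups lay below the controls and the combined group above them, with no overlap with the controls in these deposited signals. For SEMA3A the gap was narrow, at 534 against 538, and on the normalised levels SEMA3A array 3 lay inside the control range. On those levels 12.1%, 17.2% and 15.1% of all genes had no overlap with the controls for SEMA6A, SEMA3A and both factors. The transferrin receptor 3'/5' ratio ran against Ifng, at r = -0.72 over the 12 arrays. Its mean was 8.19 ± 1.27 (SD, n = 3) in the controls, 17.6 ± 0.451 with SEMA3A alone and 22.5 ± 13.7 with SEMA6A alone. With both factors it was 9.78 ± 3.37, and SEMA3A array 3 had a ratio of 18.1 at an Ifng signal of 534. The part of this ratio in the Ifng signal was not tested. The 4 arrays that stood apart were those with the 4 lowest Ifng signals, at 248 to 332 against 444 to 677 elsewhere.

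The receptor chains differed from each other. Ifngr1 read 5785, 4309 and 4842 in the controls, 4935, 5585 and 6824 with SEMA6A, 6405, 6035 and 5511 with SEMA3A, and 5427, 5786 and 5225 with both factors. Its group means ran from 4979 ± 748 (SD, n = 3) in the controls to 5983 ± 450 with SEMA3A, and all groups overlapped. Ifngr2, the signalling chain, was dim even on its brighter probe set, at 66.8, 59.7 and 37.6 in the controls, 65.1, 33.9 and 53.3 with SEMA6A, 36.8, 79.4 and 23.7 with SEMA3A, and 79.5, 74.8 and 85.8 with both factors. The 3 arrays with both factors lay above every control and SEMA6A array, while SEMA3A array 2 reached into their range. A signal cannot be read as an RNA amount across probe sets, so the chains' levels are not compared with each other.

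The regulators gave bright signals on every array. Irf1, the early transcription factor of the pathway, read 2981, 3202 and 2541 in the controls, 3067, 2343 and 3158 with SEMA6A, 2402, 3289 and 2376 with SEMA3A, and 2975, 2693 and 2740 with both factors. Its highest signal was 1.4 times its lowest, and all groups overlapped, with the lowest array in the SEMA6A group and the highest in the SEMA3A group. On its brighter probe set, Irf8 read 6905, 8374 and 7592 in the controls, 7817, 8289 and 8646 with SEMA6A, 8802, 9117 and 7454 with SEMA3A, and 8802, 7860 and 7684 with both factors. These overlapped in all groups. The second probe set of Irf8 gave 3157, 3129 and 2984, then 3128, 3284 and 3982, then 3612, 3570 and 2862, and 2821, 2355 and 2505 in the same order of groups. There the arrays with both factors were the 3 lowest of all 12.

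The guanylate-binding proteins are large GTPases, and the highest signal was 2.19 times the lowest for Gbp2 and 2.17 times for Gbp3. Gbp2 read 1404, 1722 and 1088 in the controls, 1751, 1267 and 2064 with SEMA6A, 989, 2169 and 1186 with SEMA3A, and 1665, 1561 and 1850 with both factors on its brighter probe set. The SEMA3A arrays alone spanned the lowest and the highest signal of the gene. Gbp3 read 1010, 874 and 592 in the controls, 1029, 1172 and 1283 with SEMA6A, 938, 1194 and 1088 with SEMA3A, and 935, 928 and 1132 with both factors. All 3 SEMA6A arrays lay above all 3 controls, of which control array 3 was the lowest of the 12. The suffix of the second probe set of Gbp2 marks probes that can match other transcripts, and that of the Gbp3, Irf1 and brighter Iigp1 probe sets marks probes shared by several transcripts. GBP and IRG genes lie in clusters of close copies, so signal from a neighbour may be included.

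Among the IRG genes, Irgm1 and Igtp encode regulators that keep the effector GTPases inactive on the cell's own membranes. Irgm1 read 1047, 1390 and 844 in the controls, 1264, 455 and 790 with SEMA6A, 491, 854 and 869 with SEMA3A, and 1130, 890 and 1080 with both factors. Igtp read 8210, 9428 and 7499, then 9654, 4681 and 8001, then 5345, 8422 and 7015, and 8995, 7461 and 9413 in the same order. Both genes were lowest on SEMA6A array 2 and SEMA3A array 1, and for both the remaining arrays of those groups reached close to or into the control range.

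The effectors Ifi47 and Iigp1 differed in how far they ranged. Ifi47 read 6409, 5969 and 5426 in the controls, 6436, 5051 and 6458 with SEMA6A, 4645, 6113 and 5746 with SEMA3A, and 5821, 5474 and 6036 with both factors, a span of 1.39-fold. Iigp1, whose protein coats parasite vacuoles, read 778, 1443 and 610 in the controls, 1456, 353 and 1477 with SEMA6A, 364, 1562 and 678 with SEMA3A, and 1332, 572 and 1431 with both factors on its brighter probe set. Its highest signal was 4.42 times its lowest, and each group held at least 1 array at 1431 or above and 1 at 678 or below. Its second probe set ranged from 116 on SEMA6A array 2 to 930 on array 3 of both factors, with a correlation of 0.95 between the probe sets over 12 arrays.

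**Figure D1:**
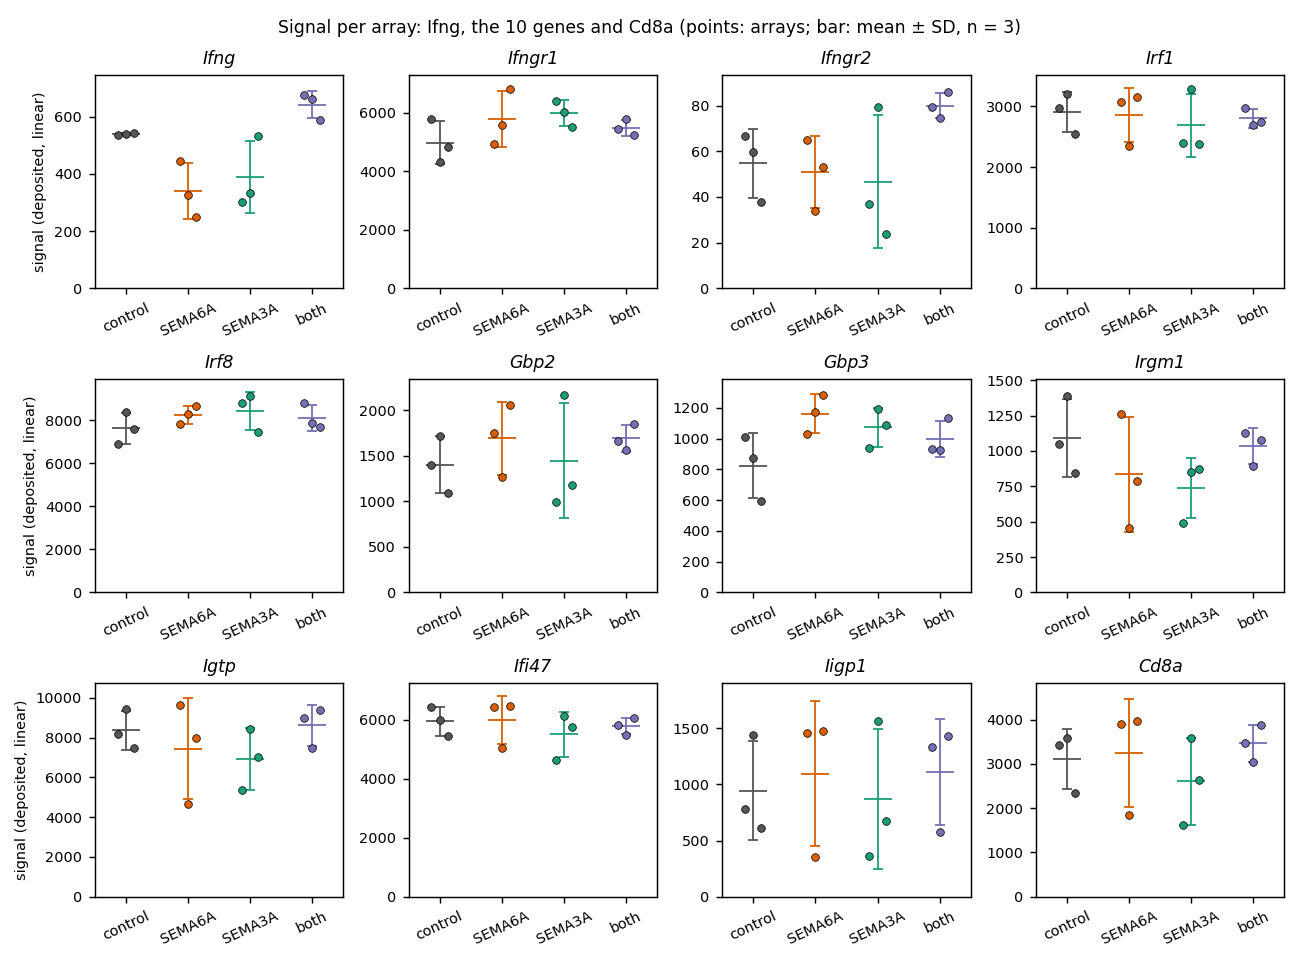
Deposited signal on a linear axis from 0 for Ifng, the 10 genes and Cd8a, with 1 point per array and the mean ± SD of 3 arrays in each group. Ifng lies lower than the controls in both single-factor groups and highest with both factors (642 ± 47.6), whereas Iigp1 spreads from 353 to 1477 inside the SEMA6A group alone.

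How much of each gene's variance lay between the groups was computed from the normalised log2 levels. It was 67.7% for Ifng, 49.5% for Gbp3, 39.3% for Ifngr2, 31.3% for Ifngr1 and 30.0% for Irgm1, against a median of 32.3% over the genes tested. Below that came Irf8 with 21.8%, Igtp with 20.5%, Gbp2 with 17.2%, Ifi47 with 12.9%, Iigp1 with 5.47% and Irf1 with 5.13%. The spread within groups was the larger feature of several GTPases. Iigp1 had a residual SD of 0.92 on the log2 scale, and 99.8% of genes tested had a smaller one. The residual SD was 0.47 for Irgm1 (92.9% of genes smaller), 0.39 for Gbp2 (87.9%) and 0.34 for Igtp (83.4%). Irf8 had 0.13, below the median of 0.19 over all genes, but 52.8% of the 542 genes within 0.5 of its own log2 level had a smaller one.

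None of the 10 genes passed the threshold in any of the 6 comparisons. Neither did any other gene: limma with Benjamini-Hochberg adjustment called 0 of 11325 genes (0%) in each. SEMA6A against control asked what SEMA6A on the tumour cells did in the absence of added SEMA3A. Gbp3 was 0.51 ± 0.17 (SE) higher on the log2 scale, a 1.43-fold difference with a 95% interval of 0.14 to 0.88 (limma adjusted p = 0.48). It was the only one of the 10 genes below an unadjusted p of 0.05, in a comparison where 1184 genes, or 10.5%, were. It was also the only one whose groups did not overlap on the normalised levels, as 12.1% of genes did not. Irgm1 differed by -0.47 ± 0.31 and Igtp by -0.24 ± 0.22, while Ifi47 (0.01 ± 0.12) and Irf1 (-0.02 ± 0.15) had differences near 0 with intervals of -0.25 to 0.26 and -0.34 to 0.29. Of the 10, 6 were above 0, with a median of 0.03 beside 0.02 for all genes.

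SEMA3A against control gave a like picture for Gbp3, which was 0.40 ± 0.17 higher (1.32-fold, limma adjusted p = 0.55). These comparisons share the control arrays, so the Gbp3 values are not independent of each other. Again it alone was below an unadjusted p of 0.05, where 990 genes, or 8.74%, were, and no member's groups were free of overlap (17.2% of genes). Irgm1 was at -0.57 ± 0.31 and Igtp at -0.30 ± 0.22, with intervals from -1.25 to 0.11 and from -0.78 to 0.18. Ifngr1 was at 0.27 ± 0.13 (adjusted p = 0.58). In all, 3 of the 10 were above 0 and the median was -0.11, beside 0.01 for all genes.

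With both factors against control, the 10 genes lay close to the controls. No member was below an unadjusted p of 0.05, as 465 genes, or 4.11%, were. Gbp3 was at 0.32 ± 0.17, Gbp2 at 0.31 ± 0.26 and Ifngr2 at 0.38 ± 0.31, each with a limma adjusted p of 1.0. Irgm1 (-0.03 ± 0.31) and Igtp (0.01 ± 0.22) differed by little, but their intervals, -0.71 to 0.64 and -0.47 to 0.49, leave room for differences in either direction. Ifngr2 was the one member without overlap, which held for 15.1% of genes. For Irf8, the choice of probe set turned the direction: 0.06 ± 0.10 on the brighter probe set and -0.26 on the second, which has the larger interquartile range.

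Adding SEMA6A where SEMA3A was present, that is both factors against SEMA3A, gave the largest single difference of the receptor chains. Ifngr2 was 0.69 ± 0.31 higher (1.62-fold, 95% interval 0.03 to 1.35, limma adjusted p = 0.43), where 1270 genes, or 11.2%, had an unadjusted p below 0.05. Irgm1 was at 0.54 ± 0.31 and was the member without overlap, as 21.1% of genes were. Its gap was narrow, with SEMA3A arrays up to a signal of 869 and both-factor arrays from 890. Igtp was at 0.31 ± 0.22, and Iigp1 at 0.50 ± 0.59 with an interval of -0.77 to 1.78. Of the 10 genes, 7 were above 0 with a median of 0.19, beside 51.4% and 0.01 for all genes.

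Adding SEMA3A where SEMA6A was overexpressed, that is both factors against SEMA6A, gave no member below an unadjusted p of 0.05, although 1304 genes, or 11.5%, were. Ifngr2 was at 0.52 ± 0.31 without overlap between the groups (14.1% of genes), Irgm1 at 0.43 ± 0.31 and Gbp3 at -0.20 ± 0.17. The median of the 10 was 0.01.

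The interaction asks whether the effect of one factor depended on the other. Ifng had 1.46 ± 0.32 (limma adjusted p = 0.20). Irgm1 had 1.00 ± 0.44 in the same direction (limma adjusted p = 0.26) and Ifngr2 0.83 ± 0.43. Gbp3 had -0.60 ± 0.24 in the opposite one (limma adjusted p = 0.24). Members below an unadjusted p of 0.05 were thus Irgm1 and Gbp3, 2 of 10, where 2037 genes, or 18%, were. Without SEMA6A array 1, Irgm1 passed, at 1.36 with a limma adjusted p of 0.037, and 1286 genes did in place of 0. The other members had interactions of -0.35 ± 0.19 (Ifngr1) to 0.55 ± 0.31 (Igtp).

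**Figure D2:**
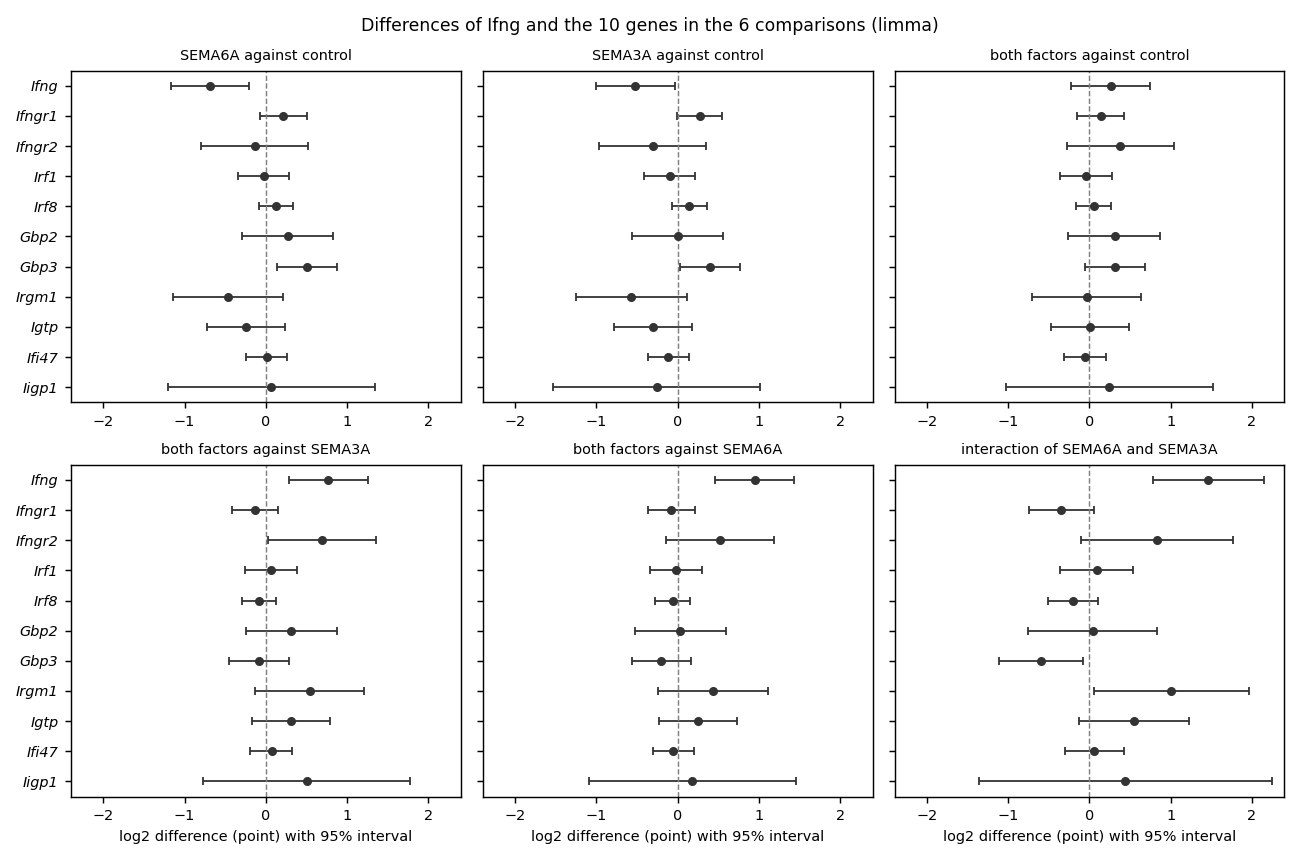
Differences on the log2 scale for Ifng and the 10 genes in the 6 comparisons, with a point for the limma estimate and a bar for its 95% interval. The interval of Gbp3 lies above 0 for SEMA6A and for SEMA3A against control, and the bar of Iigp1, from -1.36 to 2.25 in the interaction, is the widest.

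Whether the genes followed Ifng was tested over the 12 arrays by Pearson's r with 100000 permutations, adjusted over 11324 genes. The permutations moved arrays freely between the groups, although 67.7% of the variance of Ifng lay between groups. Their p-values thus do not separate differences between groups from a relation inside them. None of the 10 genes was called, although 1366 genes (12.1%) were, 676 of them upward (5.97%) and 690 downward, and 3467 genes (30.6%) had an unadjusted permutation p below 0.05. Irgm1 came nearest among the GTPases, with r = 0.64 (permutation p = 0.024, adjusted p = 0.105) and Spearman's rho = 0.54. Igtp had r = 0.43 and rho = 0.24, and Iigp1, Ifi47 and Gbp2 had r = 0.12, 0.08 and -0.06, with rho of -0.19, -0.23 and -0.13. Gbp3 went the other way, with r = -0.47 (adjusted permutation p = 0.275). The median r of the 6 GTPases was 0.10, beside 0.02 for all genes, and the median size of r was 0.28, beside 0.40.

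The receptor's ligand-binding chain and Irf8 ran against Ifng without passing the threshold. Ifngr1 had r = -0.63 (permutation p = 0.027, adjusted p = 0.112, rho = -0.59) and Irf8 r = -0.60 (permutation p = 0.04, adjusted p = 0.141, rho = -0.47). Ifngr2 was at r = 0.35 and Irf1 at -0.07. The second probe set of Irf8 ran more closely against Ifng. It had r = -0.90 with a permutation adjusted p of 0.039 when every probe set was counted, where 7.27% of 20642 probe sets were called. By Spearman's rho only 5 genes of all (0.0442%) were called and no member was.

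The calls with Ifng depended on few arrays. Without SEMA6A array 3 and SEMA3A array 1, which lay farthest from the median of Ifng, 7 genes were called and Ifngr1 fell to r = -0.28, with Irgm1 at 0.58, Irf8 at -0.44 and Gbp3 at -0.45. Leaving out SEMA3A array 1 or SEMA3A array 2 alone left 0 genes called. Over the 8 arrays that did not stand apart on the first component, no gene of 11324 was called, with 781 at an unadjusted permutation p below 0.05. There r with Ifng was -0.28 for Irgm1, -0.23 for Igtp, -0.59 for Ifi47, -0.17 for Iigp1, 0.12 for Gbp2 and -0.03 for Gbp3. Ifngr1 and Irf8 turned to 0.39 each, Irf1 was at -0.16 and Ifngr2 at 0.27. The second probe set of Irf8 kept its direction there, at -0.70. All these removals took out arrays with low Ifng signals, which narrowed the range of Ifng and left fewer arrays. The lost calls and turned directions therefore cannot show that a relation is absent. Ifng itself correlated with the first component at 0.82, Irgm1 at 0.90, Igtp at 0.79, Iigp1 at 0.50 and Gbp2 at 0.20, as a description over 12 arrays. The 4 arrays fall in the SEMA6A and SEMA3A groups only. The mean of the 10 squamous tumour markers tested was 7.64 to 8.05 on them on the log2 scale, and 7.33 to 7.5 on the other 8. The mean of the 5 macrophage markers was 8.51 and 7.99 on SEMA6A arrays 2 and 3. It was 8.41 and 8.31 on SEMA3A arrays 1 and 2, and 7.81 to 8.09 on the other 8. What sets the 4 arrays apart was not tested. The 3'/5' ratio of the transferrin receptor control probe sets ran against Ifng, at r = -0.72. With the mean of the 6 GTPases this ratio had r = -0.29, or -0.02 without SEMA6A array 2. Its part in the relation to Ifng was not tested.

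With the group means taken out, limma called 66 genes (0.583%) with a slope on Ifng inside the groups, and none of the 10. Ifngr1 had a slope of -0.39 ± 0.14 (limma adjusted p = 0.23), where 1734 genes, or 15.3%, had an unadjusted p below 0.05. Irgm1 had 0.72 ± 0.39 (adjusted p = 0.40), Igtp 0.18 ± 0.31 and Iigp1 0.03 ± 0.83.

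**Figure D3:**
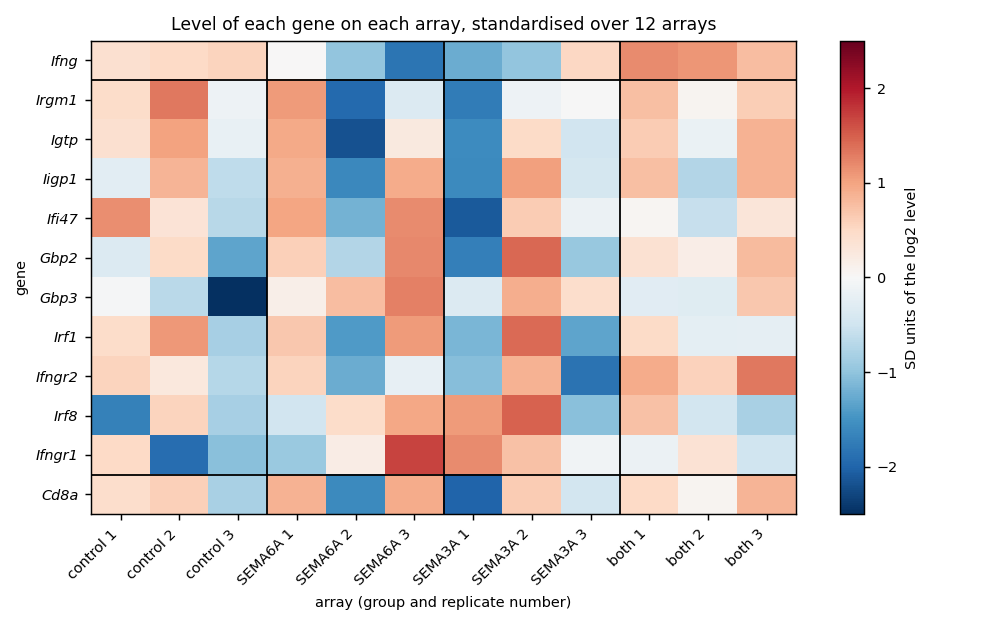
Level of each gene on each of the 12 arrays in SD units of its log2 level over the arrays, with red above and blue below the gene's mean and black lines between the groups. SEMA6A array 2 and SEMA3A array 1 are blue from Irgm1 to Iigp1 and in Cd8a, while SEMA6A array 3 and SEMA3A array 2, also blue in Ifng, are red in Iigp1, Gbp2 and Irf1.

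Most of the GTPases varied together over the arrays. As a description over 12 arrays, the 15 pairs of the 6 GTPases had r of -0.15 to 0.94, with a median of 0.71. With Gbp3 set aside after its values were seen, the 10 pairs among Gbp2, Irgm1, Igtp, Ifi47 and Iigp1 had r of 0.53 to 0.94, with a median of 0.79. Over all pairs of genes tested the median size of r was 0.29, and 1.34% of pairs lay above 0.8. Irf1 ran with these 5 genes at 0.63 to 0.85, and Ifngr2 at 0.57 to 0.76. Gbp3 was looser, at -0.15 to 0.54 with the other 5 GTPases. Irf8 (-0.33 to 0.30) and Ifngr1 (-0.60 to 0.53) showed no common direction with the 6. In the windows searched, Irgm1 and Gbp3 both carry overlapping ISRE matches, and Ifi47, which ran with the group, has neither motif. Whether the motifs bear on how the genes varied together was not tested.

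The mean of the 6 GTPases in SD units gives the array order. It was 0.24, 0.55 and -0.92 in the controls, 0.77, -1.15 and 0.74 with SEMA6A, -1.51, 0.73 and -0.26 with SEMA3A, and 0.38, -0.26 and 0.68 with both factors. The high and the low arrays were thus spread over the groups, each with at least 1 array above and 1 below 0. Its r with Ifng was 0.15, ranging from -0.10 to 0.40 as each array was left out in turn, and -0.21 over the 8 arrays that did not stand apart.

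The genes most like this mean, by r over 12 arrays and members aside, were Cd8a (0.98), Gcnt2 and Slc4a4 (0.95 each), and Retreg1 and Sh3bp5 (0.93 each). Cd8a encodes the alpha chain of the CD8 coreceptor of cytotoxic T cells. It read 3418, 3592 and 2333 in the controls, 3909, 1839 and 3980 with SEMA6A, 1613, 3587 and 2627 with SEMA3A, and 3477, 3039 and 3881 with both factors. Being the most alike of all genes tested, it was chosen after its values were seen, and its values are a description with no test. Its r was 0.93 with Iigp1, 0.92 with Ifi47 and Igtp, 0.88 with Gbp2, and 0.83 with Irgm1 and Irf1. Ifngr2 had 0.77, Gbp3 0.30, Irf8 -0.09 and Ifngr1 -0.17, and Ifng itself 0.26. With the GTPase mean, r stayed at 0.97 to 0.99 as each array was left out and was 0.97 over the 8 arrays that did not stand apart. The 5 probe sets of Cd8a had r of 0.73 to 0.98 with that mean, and Cd8b1, the gene of the other CD8 chain, 0.69.

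**Figure D4:**
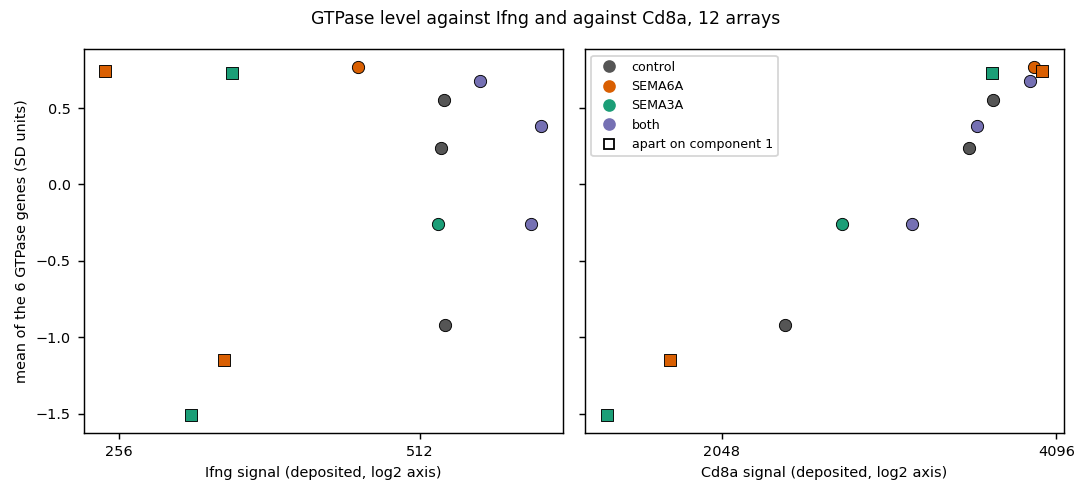
Mean level of the 6 GTPase genes in SD units (vertical axis, same in both panels) against the deposited signal of Ifng (left) and of Cd8a (right) on log2 axes, with 1 point per array, colours for groups and squares for the 4 arrays apart on the first component. The points scatter on the left (r = 0.15) and lie along a line on the right (r = 0.98).

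Markers of the cell types the culture could hold were set beside this. The mean of the 10 T cell markers tested ranged from 11.75 to 12.07 on the log2 scale over the arrays and had r = 0.16 with the GTPase mean, with 4 of the 10 above 0. These 4 included Cd8a itself, picked for its likeness to that mean, beside Cd8b1 (0.69), Zap70 (0.14) and Cd3d (0.02). The others ran from -0.82 for Cd28 to -0.11 for Thy1. The mean of the 8 NK markers had r = 0.23 and ranged from 9.85 to 10.65, with single genes from -0.69 for Eomes to 0.70 for Klrk1. The 5 macrophage markers had r = -0.48 and ranged from 7.81 to 8.51, with Cd14 at -0.95 and the other 4 at -0.46 to 0.16. The means of 3 B cell, 4 dendritic and 10 squamous tumour markers had r of 0.28, 0.35 and -0.22. The part of any of these cells in the GTPase levels was not tested. The Gapdh 3'/5' ratio had r = -0.46 with the GTPase mean, or -0.16 without SEMA6A array 2, and its part was not tested either.

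Other listed genes of the GBP, IRG and Mx families gave 7 tested genes of 10 on the array, and none was called in any comparison. Irgm2 and Gm4951, further IRG genes, ran with the GTPase mean at r = 0.89 and 0.90, and Gbp6 and Gbp7 at 0.54 and 0.52, while Gbp8 and Mx1 had -0.39 and -0.58. With Ifng, 1 of the 7 was called, near the 12.1% called among all genes. It was Irgq, a distant relative of the IRG family, which ran against Ifng at r = -0.86 (permutation adjusted p = 0.031). Whether Irgq responds to interferon-gamma was not tested. Irgq had the largest differences of this list, 0.94 ± 0.22 for SEMA6A against control and -1.56 ± 0.31 for the interaction, with limma adjusted p of 0.48 and 0.20. The promoter of Irgm2, next to Igtp on the same chromosome, held the same pair of motifs as that of Igtp, GAS at 75 and ISRE at 64 bases before its start.

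Of 14 tested signalling genes of the pathway other than Ifng, 2 were called with Ifng over the 12 arrays, near the 12.1% called among all genes. Usp18, an inhibitor of interferon signalling, ran with it at r = 0.88 (permutation adjusted p = 0.031), and Stat3 against it at r = -0.79 (adjusted p = 0.036). Socs1, the feedback inhibitor of JAK kinases, had r = 0.63 (adjusted p = 0.096) and the phosphatase gene Ptpn6 0.74 (adjusted p = 0.054). No signalling gene was called in a comparison, and Usp18 had an interaction of 1.53 ± 0.51 (limma adjusted p = 0.20).

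Of 27 other interferon-gamma targets on the array, 21 were tested, 12 of which had r above 0 with Ifng, as 51.3% of all genes did. Where 12.1% of all genes were called, 1 of the 21 was, Casp1, at r = -0.75 with a permutation adjusted p of 0.05 after rounding, and none was called in a comparison. The chemokine genes Cxcl9, Cxcl10 and Cxcl11, which macrophages and stromal cells make in response to interferon-gamma, never exceeded signals of 41.4, 41.2 and 68.1. Ciita, Nos2 and Ido1 stayed at or below 53.0, 11 and 35.1 and were not tested. Immunoproteasome and antigen presentation genes were bright, with Psmb8 between 13508 and 16807 and Tap2 between 1667 and 2265. Their r with the GTPase mean differed. It was 0.80 for Psmb10, 0.66 for Psme1, 0.63 for Tapbp, 0.47 for Psmb9, 0.43 for B2m and 0.24 for Psmb8. For Tap1 and Tap2 it was -0.18 and -0.34. The calls with Ifng among these lists, like all others, were not made over the 8 arrays that did not stand apart, where the range of Ifng was narrower.

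For Irf8, Gbp2 and Iigp1, both probe sets passed the filter, and their difference on each array was examined after the values were seen. For Irf8 the brighter minus the second was 1.60, 1.70 and 1.58 on the log2 scale with both factors, against 1.14 to 1.43 on the other 9 arrays. For Gbp2 it was 0.27, 0.63 and 0.35 against -0.28 to 0.11. For Iigp1 it was 0.75, 0.54 and 0.61 against 0.78 to 1.5. In all 3 genes the arrays with both factors thus lay outside the range of every other array, as they did in 150 of 5360 pairs (2.8%). The 3 genes were described for this after it was seen, so nothing is read from that count. Fitted over 5360 genes with such a pair, both factors against control differed by 0.53 ± 0.15 for Gbp2 (limma adjusted p = 0.43), 0.32 ± 0.12 for Irf8 (0.59) and -0.35 ± 0.15 for Iigp1 (0.62). Each of the 3 was below an unadjusted p of 0.05, as 7.67% of pairs were. For SEMA6A and for SEMA3A against control 0 of the 3 were below it, beside 6.85% and 5.49% of pairs. With both factors against SEMA6A all 3 were (8.47% of pairs), against SEMA3A Gbp2 and Irf8 (8.84%), and in the interaction Iigp1 (8.23%). After adjustment no pair of the 3 passed in any of these comparisons, and 1 pair of another gene (0.0187%) did, in both factors against SEMA3A. Which transcripts each probe set detects was not tested.

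**Figure D5:**
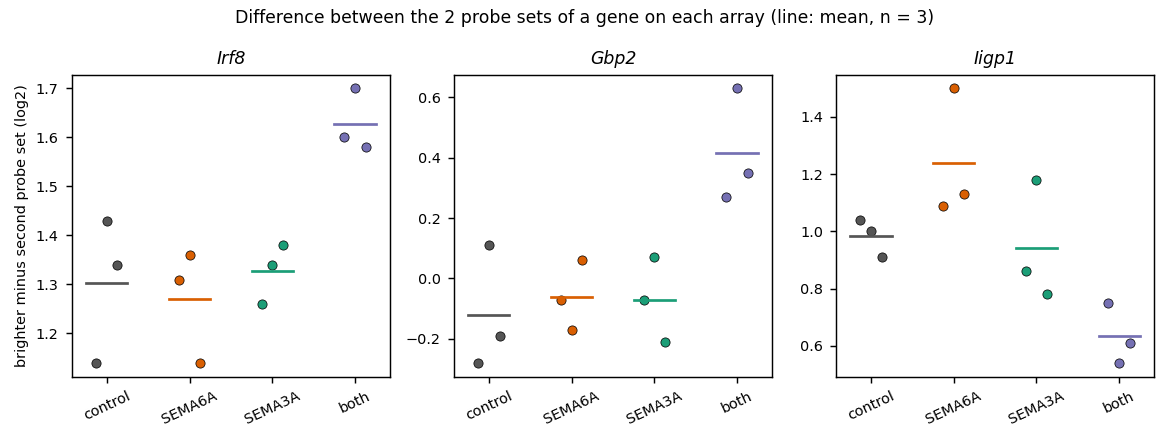
Brighter minus second probe set on the log2 scale for Irf8, Gbp2 and Iigp1, with 1 point per array and a line at the mean of 3 arrays in each group. The 3 arrays with both factors lie above all others for Irf8 (1.58 to 1.70) and Gbp2 (0.27 to 0.63) and below all others for Iigp1 (0.54 to 0.75).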

How the data were processed

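Per the labels' protocols, cRNA made from 6 µg of total RNA was labelled with biotin and each of the 12 samples was hybridised to an Affymetrix array of its own. The authors deposited 1 linear intensity for each probe set, computed with MAS5 per the submitters' processing notes, with the version not given in the sources used here. Each array had been scaled so that its mean, trimmed of 2% at either end, was 500. Precision is limited by the number of arrays.

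Of 45101 probe sets, 34945 named 1 gene in the platform annotation and only these were named, while 932 named several, 9160 were not listed and 64 were controls. All 10 member symbols matched the RefSeq table of GRCm38.p6. Signals were taken as log2(signal + 16), which understates changes of dim genes, and quantile normalized, since array medians differed 1.26-fold. Probe sets above their own array's median on at least 3 arrays were kept (24366), and the one with the highest mean stood for a gene. Group means were fitted to the 12 arrays together in limma 3.58.1 (R 4.3.3), using a trended prior (8 residual and 5.14 prior degrees of freedom, median standard error 0.153), with Benjamini-Hochberg adjustment over 11325 genes at 0.05. Pearson and Spearman relations to Ifng used 2-sided permutations of the arrays (Python 3.11.15, numpy 2.4.6), whose smallest p is 1e-05. A check on simulated data of SEMA6A against control (200 changed genes of 11325, 5 draws) recovered 44.2% of 1.5-fold, 80.9% of 2-fold and 98.5% of 4-fold changes, with 5.41% false calls. Its noise was independent between genes, without deviations of whole arrays, so these shares need not hold for the data, where 4 arrays stood apart.

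The members, gene lists and tests were chosen with earlier results of these data known. Named genes were the members, Ifng, up to 4 genes of a list with the smallest p, and the 5 genes most like the GTPase mean. Cd8a, Cd14 and the probe set pairs were picked after their values were seen. So were the cell type markers given by their signal and the other list genes given by their r with the GTPase mean. Alternatives were no quantile normalization, pseudocounts of 1 and 64, no filter or one at the 75th percentile, other probe set choices, no prior trend, only the arrays compared, a replicate block, and leaving out single arrays, the 2 farthest in Ifng or, added later, the 4 that stood apart.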

Additional observations from a re-analysis of the deposited data

How the results depend on the processing

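Outside of leaving out single arrays, 583 of 584 member differences kept their direction and their side of the threshold. The exception was Irf8 with both factors against control, at -0.26 with the probe set of the largest interquartile range, which also gave Irf8 an r of -0.90 with Ifng (permutation adjusted p = 0.033). Without the 4 arrays apart on the first component, chosen after seeing the data, r with Ifng reversed for Ifngr1 and Irf8 (0.39 each), Gbp2 (0.12), Irgm1 (-0.28), Igtp (-0.23), Ifi47 (-0.59) and Iigp1 (-0.17). These 4 arrays had the lowest Ifng signals, so leaving them out also narrowed the range of Ifng. The count of genes following Ifng went from 1366 to 690 with no filter, 0 with the replicate block, 7 without the 2 farthest arrays and 0 without those 4, and within groups from 66 to 37 with no filter, 18 with no prior trend and 4 with the replicate block. Both factors against control had 1 gene in place of 0 with that other probe set and with only the arrays compared, as had both factors against SEMA6A with no prior trend. The cause was not tested. Same-numbered arrays did not deviate together (r of -0.36 to 0.14 over 18 pairs), which cannot show whether the numbers pair samples. The replicate block changed no member's call.

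As each array was left out in turn, counts ranged from 0 to 512 for SEMA6A against control, 0 to 1 for both factors against control, 0 to 381 for both factors against SEMA6A and 0 to 1286 for the interaction. The highest came without SEMA6A array 1, and 281 were called in the interaction without SEMA3A array 3. Genes following Ifng ranged from 0 (without SEMA3A array 1 or 2) to 1284, and within groups from 0 (without SEMA3A array 3) to 838 (without SEMA6A array 2). Of 720 member differences 662 kept direction and side, 57 reversed and 1, Irgm1 in the interaction, newly passed. In SEMA6A against control the ranges that crossed 0 were Ifi47 -0.06 to 0.12, Ifngr2 -0.32 to 0.06, Igtp -0.45 to 0.06, Iigp1 -0.28 to 0.74 and Irf1 -0.12 to 0.11. In SEMA3A against control the ranges that crossed 0 were Gbp2 -0.34 to 0.24 and Iigp1 -0.81 to 0.24. In both factors against control the ranges that crossed 0 were Gbp2 -0.07 to 0.46, Ifi47 -0.12 to 0.02, Igtp -0.09 to 0.11, Iigp1 -0.01 to 0.66, Irf1 -0.14 to 0.03, Irf8 -0.00 to 0.14 and Irgm1 -0.20 to 0.15. In both factors against SEMA3A the ranges that crossed 0 were Gbp2 -0.02 to 0.64, Ifi47 -0.05 to 0.15 and Irf1 -0.02 to 0.22. In both factors against SEMA6A the ranges that crossed 0 were Gbp2 -0.28 to 0.19, Ifi47 -0.17 to 0.01, Ifngr1 -0.19 to 0.05, Igtp -0.05 to 0.46, Iigp1 -0.49 to 0.59 and Irf1 -0.16 to 0.07. In the interaction the ranges that crossed 0 were Gbp2 -0.23 to 0.37, Ifi47 -0.05 to 0.15, Iigp1 -0.23 to 0.99 and Irf1 -0.05 to 0.24. Ranges of r with Ifng that crossed 0 were -0.35 to 0.21 for Gbp2, -0.26 to 0.38 for Ifi47, -0.09 to 0.37 for Iigp1 and -0.25 to 0.15 for Irf1. With 3 arrays a group, the 95% intervals show which sizes of difference these data leave possible.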
